A study of Mus musculus with 10 samples.

Results

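The transcripts described here are 10 immediate early genes, chosen by gene symbol: the FOS subunit genes Fos, Fosb and Fosl2, the JUN subunit genes Jun, Junb and Jund, the zinc finger factor genes Egr1 and Egr2, Ier2, and the phosphatase gene Dusp1. All 10 had a row in the table of 20813 genes, and all 10 were among the 15276 genes with a mean normalized count of at least 10 over the libraries, which were the genes tested. RNA came from spleens of sublethally irradiated C57BL/6 mice that received, by vein, a mouse T-cell acute lymphoblastic leukemia (T-ALL, a cancer of immature T cells) carrying a conditional Sirt1 allele. Sirt1 encodes an NAD-dependent protein deacetylase. By the genotype label, 5 spleens were Sirt1 deleted and 5 were Control. The titles set the same groups apart as TMX and VEH, and the protocol gives tamoxifen (3 mg per mouse in corn oil, intraperitoneal) and corn oil alone as the treatments, so deletion and tamoxifen cannot be told apart. The Cre driver, the age of the mice and the number of primary leukemias are not given in the sources used here, and p-values measure the spread between these spleens.

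Sirt1 itself did not separate the groups, with 1715 to 2097 normalized counts in the labelled Sirt1-deleted libraries and 1735 to 1909 in controls (log2 difference 0.05, limma adjusted p = 0.568). These values are per gene, so loss of single exons cannot be read from them, and whether the allele was deleted was not tested. The name labelled Sirt1-deleted, used from here on, rests on the genotype label alone. Normalized counts summed to between 33660200 and 34472000 per library, and 36.1% of the genes tested differed at an adjusted p under 0.05 (16.8% higher and 19.4% lower). Of the genes that differed, 46.4% were higher with the deposited scaling and 58.5% after upper-quartile rescaling. T lineage markers were abundant in every library (Trbc1, 65398 to 85549 normalized counts). Of the neutrophil markers, 12 of 13 were higher in the labelled Sirt1-deleted libraries, where their summed level was 28770.2 to 97748 against 9036 to 12528 in controls. Of the macrophage markers, 9 of 11 were higher (summed level 3699 to 5395 against 2243 to 2660.5). Of the 12 T lineage markers, 2 were higher (Cd3d and Trbc2) and 2 lower (Cd8b1 and Rag1). Rag1 was 2323, 2902 and 2404 in labelled Sirt1-deleted libraries 7, 8 and 12. In libraries 10 and 11 it was 4997 and 4967, within the control range (4185 to 5443). Ptcra, which was not called, was 278, 284 and 351 in libraries 7, 8 and 12. It was 1171 and 1157 in libraries 10 and 11, against 488 to 668 in controls. Cd3d did not split this way (14064 to 14884 in that group). In bulk spleen, fewer cells of a type and less RNA per cell cannot be told apart.

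Immediate early genes are switched on within minutes of a signal without new protein synthesis, and their transcripts are short-lived. Growth factor, antigen receptor and stress signals pass through MAP kinases to factors already bound at their promoters. FOS proteins need a JUN partner to form the transcription factor AP-1, whereas JUN proteins can also pair with each other. In T cells, FOS, JUN and EGR proteins are induced by T-cell receptor signalling, and EGR proteins take part in thymocyte development. Pressing a tissue into single cells can also induce these genes, and these spleens were pressed through a filter and treated to lyse red cells before RNA was extracted.

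Proximal promoter sequences are shown for 4 members to place the control elements of a gene that was higher (Jun), of genes that were lower (Fosb and Egr2) and of the founding member, which did not pass the test (Fos). RefSeq windows of 300 bases (GRCm38.p6, which is the mm10 assembly) matched 8 of the 10 members, all but Egr1 and Ier2. The Jund window was set at a start (chr8:70697739) upstream of the start of Jund in the GENCODE M21 annotation (70698949). It does not reach that second start, so lack of a motif in it says nothing about the sequence there. The sequences of Jun, Fosb and Fos run from 160 to 11 bases before the annotated start, and 30 bases around a CArG box are given for Egr2. They lie at chr4:95052233-95052382 (minus strand), chr7:19310056-19310205 (minus strand), chr12:85473730-85473879 (plus strand) and chr10:67537787-67537816 (plus strand). The sequences of Jun, Fosb and Fos hold no annotated exon of those genes themselves. The Egr2 stretch lies before some of that gene's annotated starts and in an intron of its transcripts that start further upstream. Capitals mark a variant of the AP-1 site in Jun, the first 5 letters of a cyclic AMP response element (CRE) in Fosb and Fos, an EGR site in Fosb, a TATA box in Fos and the CArG box, to which serum response factor binds, in Egr2.
Jun: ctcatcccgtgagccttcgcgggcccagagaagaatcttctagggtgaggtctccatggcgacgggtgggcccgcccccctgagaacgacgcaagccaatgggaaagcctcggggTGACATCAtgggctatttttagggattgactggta
Fosb: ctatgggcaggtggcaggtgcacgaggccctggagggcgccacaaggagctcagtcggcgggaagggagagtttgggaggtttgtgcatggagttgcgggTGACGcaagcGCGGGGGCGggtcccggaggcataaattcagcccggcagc
Fos: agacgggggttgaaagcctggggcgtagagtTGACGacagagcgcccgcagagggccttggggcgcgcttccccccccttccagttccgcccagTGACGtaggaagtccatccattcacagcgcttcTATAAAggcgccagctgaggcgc
Egr2: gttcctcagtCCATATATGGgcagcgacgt

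Motifs were searched on both strands of each 300-base window, and a match is a description of letters only. Windows began 250 bases before the annotated start, so elements further upstream were not searched. A member was counted if any of its windows held the motif, whereas the shares below are per window. Egr2 was the only member with several windows, some nearly the same, and its most upstream window held neither TGACG nor a CArG box. The short CRE motif TGACG was present in 5 of the 8 members (Dusp1, Egr2, Fos, Fosb and Junb) and in 20.8% of all 32851 promoter windows. The full CRE, TGACGTCA, which contains the short motif, was found in Dusp1 alone among the members and in 1.79% of windows. The EGR site GCGNGGGCG was found in Fosb and Fosl2 and in 5.55% of windows. The CArG box was found in Egr2 alone among the members and in 1.63% of windows, and the variant TGACATCA in Jun alone and in 3.62% of windows. No member window held TGANTCA, the common AP-1 site, which 7.81% of windows held. The EGR site was thus shared by Fosb, which was lower in the labelled Sirt1-deleted libraries, and Fosl2, which was higher.

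The immediate early genes did not move as a block. Of the 10, 3 fell (Fosb, Egr1 and Egr2), 2 rose (Jun and Fosl2) and 5 did not pass the test (Fos, Junb, Jund, Ier2 and Dusp1), so 5 of 10 were called where 36.1% of all genes tested were. The median log2 difference over the 10 was -0.03, beside a median of 0.00 over all genes tested. The groups did not overlap for 4 of the 10 (Fosb, Jun, Egr1 and Egr2), which was true of 24.0% of all genes tested. The calls of Fosb, Egr1, Egr2 and Jun held in each of the 10 fits that left out 1 library, whereas the call of Fosl2 did not. Neutrophil and macrophage marker sums were higher in the same group, and their part in these differences was not tested. Fold changes and log2 differences below are on the log2(value + 1) scale, labelled Sirt1-deleted minus control, with values given as mean ± SD over 5 libraries.

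**Figure D1:**
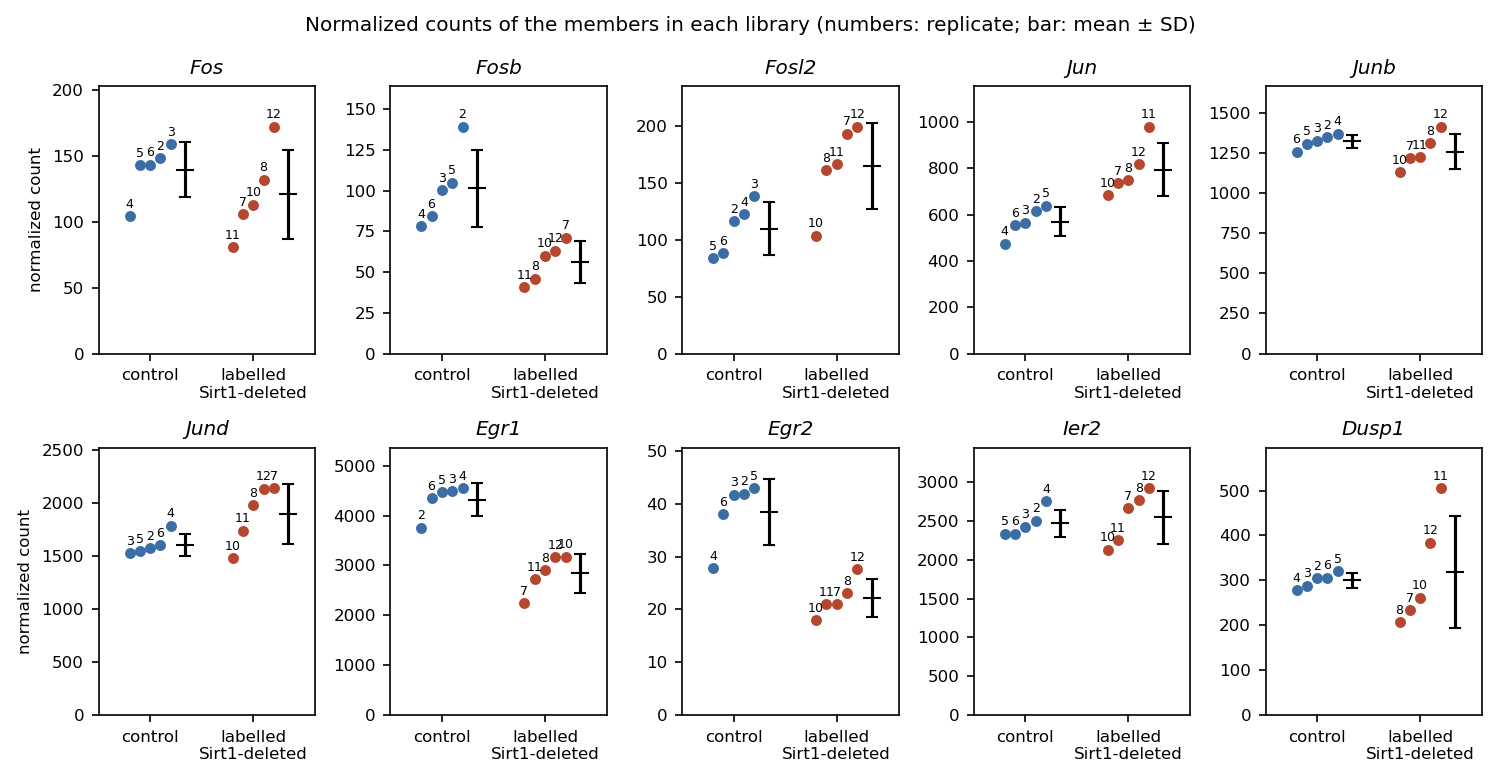
Normalized counts of each gene (vertical axes, each from 0) in the 5 control and 5 labelled Sirt1-deleted libraries, one point per library with its replicate number; the bar beside the points is the mean ± SD. Fosb, Egr1, Egr2 and Jun show no overlap between the groups, and Dusp1 spreads from 206 to 505 in the labelled Sirt1-deleted libraries against 278 to 321 in controls.

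Both EGR factors were lower, and Egr1 had the smallest adjusted p of the 10 genes. Egr1, a zinc finger factor that binds GC-rich promoter sites, measured 3759, 4492, 4546, 4465 and 4343 normalized counts in control libraries 2 to 6. In labelled Sirt1-deleted libraries 7, 8, 10, 11 and 12 it measured 2243, 2899.8, 3175, 2721 and 3169.8. Every labelled Sirt1-deleted library lay below the lowest control, library 2. Egr1 fell from 4321 ± 323 to 2842 ± 386, or 0.654 of the control level (95% interval 0.570 to 0.750; limma: log2 difference -0.61, SE 0.09, adjusted p = 7.66e-04).

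Egr2, a related factor that T-cell receptor signals induce together with Egr3, was a low-count gene. It measured 41.9, 41.7, 27.8, 42.9 and 37.97 normalized counts in control libraries 2 to 6, and 21.03, 23.1, 18.02, 21.01 and 27.6 in labelled Sirt1-deleted libraries 7, 8, 10, 11 and 12. The gap between the groups was narrow, since control library 4 (27.8) lay just above labelled Sirt1-deleted library 12 (27.6). Egr2 fell from 38.5 ± 6.25 to 22.1 ± 3.54, with a log2 difference of -0.77 and an SE of 0.21 (limma adjusted p = 0.0125).

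Among the FOS subunits the 3 genes went different ways. Fosb, whose protein can replace FOS in AP-1, measured 139, 100.2, 78.3, 105 and 84.3 normalized counts in control libraries 2 to 6. It measured 71.1, 45.8, 60.0, 40.6 and 63.2 in labelled Sirt1-deleted libraries 7, 8, 10, 11 and 12, all below the lowest control. Fosb fell from 101.3 ± 23.8 to 56.2 ± 12.6 (log2 difference -0.84, 95% interval -1.28 to -0.40, limma adjusted p = 0.00743).

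Fosl2, which encodes FRA2, a FOS family protein that persists after the first wave of induction, measured 116, 138, 122, 83.6 and 88.2 in control libraries 2 to 6 and 193, 161, 104, 167 and 199 in labelled Sirt1-deleted libraries 7, 8, 10, 11 and 12. In 4 of the 5 labelled Sirt1-deleted libraries it was above every control, and library 10 lay within the control range. Fosl2 rose from 109.6 ± 23.1 to 165 ± 37.9 (log2 difference 0.57, 95% interval 0.15 to 1.00, limma adjusted p = 0.0378). This call was lost in 7 of the 10 fits that left out 1 library (without control 2, 5 or 6, or labelled Sirt1-deleted 7, 8, 11 or 12), where the adjusted p reached 0.0922. It was also lost with quantile normalization (0.42, adjusted p = 0.110), in limma without a trend (adjusted p = 0.0537) and in the exact rank-sum test (adjusted p = 0.124).

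Fos itself, the prototype of the group, measured 148, 159, 104, 143 and 143 in control libraries 2 to 6 and 106, 132, 113, 81.0 and 172 in labelled Sirt1-deleted libraries 7, 8, 10, 11 and 12. The ranges overlapped, and the highest and the lowest value both came from the labelled Sirt1-deleted group. The log2 difference of Fos was -0.24 (95% interval -0.65 to 0.17, limma adjusted p = 0.349), so a fall to 0.638 of the control level and a rise to 1.13 times it both lie within the interval.

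The JUN subunits also went different ways. Jun, the main target of the JNK kinases, measured 616, 565, 474, 638 and 554 in control libraries 2 to 6. It measured 736, 749, 684, 979.5 and 818 in labelled Sirt1-deleted libraries 7, 8, 10, 11 and 12, each above the highest control, and library 11 was the highest of all. Jun rose from 569 ± 63.8 to 793 ± 115, a 1.39-fold change (95% interval 1.184 to 1.629; log2 difference 0.47 with an SE of 0.11, limma adjusted p = 0.00532). The GENCODE M21 annotation places the antisense gene Junos over Jun, and whether the counting used strand is not given in the sources used here, so reads of the pair may not be separated.

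Jund, the JUN gene that is expressed in most resting cells, measured 1577, 1531, 1787, 1545 and 1602 in control libraries 2 to 6 and 2141, 1985, 1482, 1740.1 and 2138 in labelled Sirt1-deleted libraries 7, 8, 10, 11 and 12. Library 10 lay below every control, and libraries 7, 8 and 12 lay above every control. The log2 difference of Jund was 0.23 (95% interval 0.02 to 0.43, limma adjusted p = 0.0819). Without labelled Sirt1-deleted library 10 it was 0.31 and passed (limma adjusted p = 0.00562), and it also passed with upper-quartile rescaling (0.29, adjusted p = 0.0455), quantile normalization (0.29, adjusted p = 0.0461) and sample weights (0.28, adjusted p = 0.0126). Gm11175 overlaps Jund in the annotation.

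Junb, whose protein can restrain JUN in AP-1 dimers, measured between 1258 and 1369 in controls and between 1128 and 1412 in the labelled Sirt1-deleted libraries. The latter range held the whole of the former. The log2 difference of Junb was -0.07 (95% interval -0.21 to 0.06, limma adjusted p = 0.383), an interval narrower than those of the other AP-1 subunits. Its locus overlaps Prdx2 in the annotation.

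Ier2, which encodes a small nuclear protein of the early response, and Dusp1, which encodes a phosphatase that inactivates MAP kinases, had group means close to each other. Ier2 measured 2506, 2426, 2756, 2336 and 2338 in control libraries 2 to 6 and 2663, 2773, 2129.8, 2255 and 2922 in labelled Sirt1-deleted libraries 7, 8, 10, 11 and 12. Its log2 difference was 0.04 (95% interval -0.15 to 0.22, limma adjusted p = 0.778), and without labelled Sirt1-deleted library 12 it was -0.02. Dusp1 was even across controls, at 305, 288, 278, 321 and 306, and scattered in the other group, at 233, 206, 262, 505 and 384 in libraries 7, 8, 10, 11 and 12. In that group, 3 libraries lay below every control and the other two above every control. The log2 difference of Dusp1 was 0.00 (95% interval -0.44 to 0.45, limma adjusted p = 0.990), and it was -0.18 without library 11 and 0.14 without library 8. In the annotation, Ergic1, Gm8225, AC122252.1 and AC122252.4 overlap Dusp1.

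**Figure D2:**
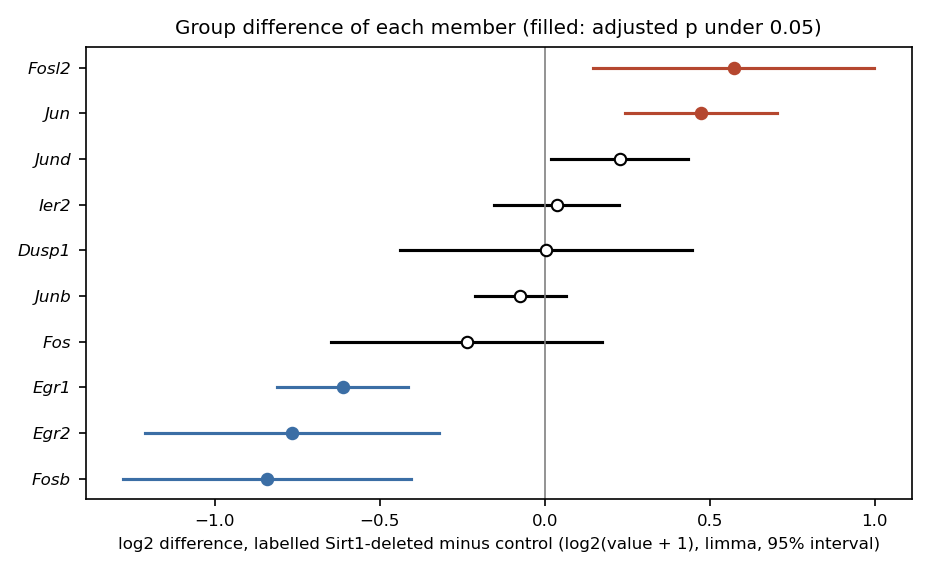
Log2 difference of each gene (horizontal axis, labelled Sirt1-deleted minus control, log2(value + 1)) with its 95% interval from limma; filled points had an adjusted p under 0.05. Fosb (-0.84), Egr2 (-0.77) and Egr1 (-0.61) lie below 0, Jun (0.47) and Fosl2 (0.57) above it.

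Levels per kilobase of annotated exon put the genes in order within a group. In controls Ier2 was highest, at 1624 ± 114 normalized counts per kilobase, followed by Jund (964 ± 62.2) and Egr1 (964 ± 72.0), which did not differ beyond their spread. Junb followed at 574 ± 18.3, then Jun (179 ± 20.01), Dusp1 (90.5 ± 5.002) and Fos (59.3 ± 8.84). Fosb (16.2 ± 3.81), Fosl2 (11.3 ± 2.39) and Egr2 (11.3 ± 1.84) were lowest, and Fosl2 and Egr2 did not differ beyond their spread. In the labelled Sirt1-deleted libraries Egr1, at 634 ± 86.0 per kilobase, no longer stood beside Jund (1137 ± 170.1) and its range overlapped that of Junb (547 ± 46.7). The mean of Fosl2 (17.0 ± 3.91) was then above that of Fosb (8.99 ± 2.02), the reverse of their order in controls. Their ranges overlapped in both groups: 8.64 to 14.3 and 12.5 to 22.3 in controls, 10.7 to 20.6 and 6.50 to 11.4 in the labelled Sirt1-deleted libraries. Such orders between genes depend on the annotated exon length (9680 bases for Fosl2 and 6243 for Fosb), which counts the exons of all annotated transcripts.

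Spread within a group differed between the genes and between the groups. The SD of log2 values was wider among the labelled Sirt1-deleted libraries for 9 of the 10 genes, all but Egr2, and it was wider there for 66.7% of all genes tested. Dusp1 had the largest contrast, with an SD of 0.54 in the labelled Sirt1-deleted libraries and 0.08 in controls. Within the labelled Sirt1-deleted group its SD exceeded that of 87.0% of genes tested, and within controls that of 25.9%. Fos, Fosl2 and Fosb were in the upper part of the distribution in both groups. They were above 78.0%, 75.9% and 72.0% of genes in the labelled Sirt1-deleted group, and above 67.6%, 75.3% and 76.2% in controls. Junb varied least, with an SD of 0.12 and 0.05 in these groups.

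The extremes were spread over several libraries. Labelled Sirt1-deleted library 10 was the lowest of its group for 6 of the 10 genes (Fosl2, Jun, Junb, Jund, Egr2 and Ier2) and the highest for Egr1. Library 12 was the highest of its group for 5 genes (Fos, Fosl2, Junb, Egr2 and Ier2) and the lowest for none. Library 11 combined the highest Jun and Dusp1 of its group with the lowest Fos and Fosb, library 7 the highest Fosb and Jund with the lowest Egr1, and library 8 had the lowest Dusp1. Among controls, library 4 was highest for Junb, Jund, Egr1 and Ier2 and lowest for Fos, Fosb, Jun, Egr2 and Dusp1. Fos and Fosb therefore went with Egr2 and against Junb and Jund in that library.

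**Figure D3:**
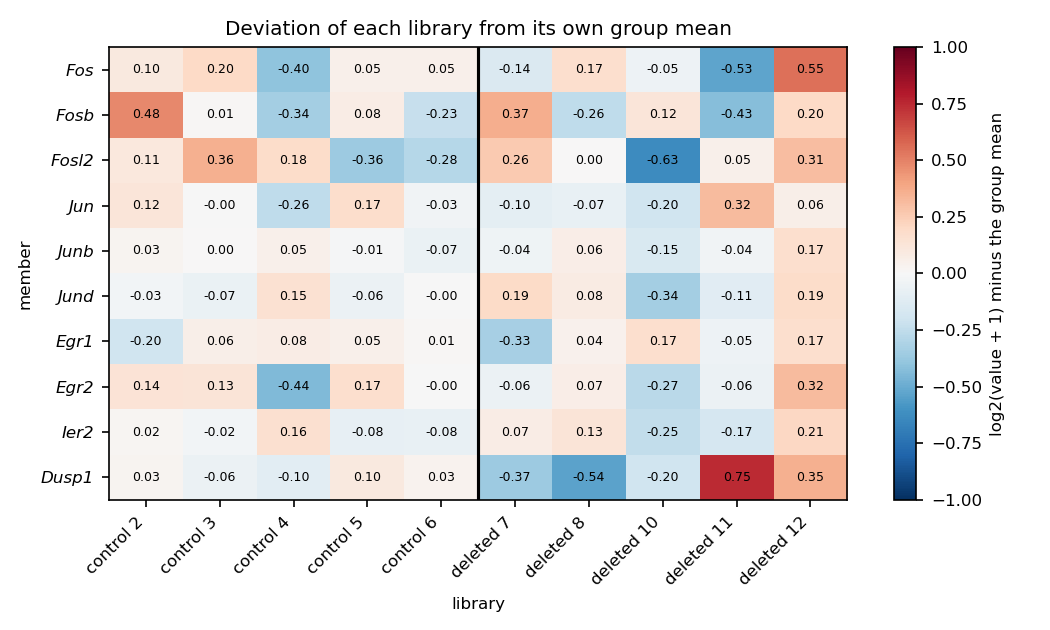
Deviation of each library (columns) from the mean of its own group for each gene (rows), in log2(value + 1); red is above and blue below the group mean. Library 10 of the labelled Sirt1-deleted group is below its mean for Fosl2, Jun, Junb, Jund, Egr2 and Ier2, and Dusp1 in library 11 is the largest deviation shown.

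Other measures of the samples varied as well, and their part in these results was not tested. The summed level of erythroid markers, which red cell lysis lowers, ran from 29180 in library 8 to 145228 in library 11 of the labelled Sirt1-deleted group and from 30989 to 120376 in controls, so both groups held a wide range. Of the 8 erythroid markers, 0 passed the limma test (1 at an unadjusted p under 0.05, 0 by the exact rank-sum test). The summed neutrophil marker level in the labelled Sirt1-deleted group was lowest in library 10 (28770.2) and highest in library 8 (97748). Dusp1 was lowest in library 8 and Jun was highest in library 11, where the neutrophil sum was 39265. None of the neutrophil and macrophage markers was at 0 in any library. B cell markers summed to 438 to 959 in the labelled Sirt1-deleted libraries and 408 to 851 in controls, and 0 of 6 passed the limma test (2 at an unadjusted p under 0.05, 0 by the exact rank-sum test). Of the 4 NK cell markers tested, 0 passed in limma, 0 at an unadjusted p under 0.05 and 0 by the exact rank-sum test. Gzma was abundant in every library (10171 to 17384), whereas Eomes (20.5 to 80.6), Prf1 (11.7 to 27.3) and Klrk1 (4.91 to 32.2) were low. Of the 6 stromal markers tested, 2 were lower (Col1a2 and Pdgfrb) and the other 4 did not pass. Summed stromal levels were 4904 to 5384 against 5660 to 6587 in controls. Most of this sum came from Pecam1 (2613 to 3604 over all libraries) and Pdgfrb (985 to 2618). Col1a1 (39.3 to 85.4), Kdr (5.23 to 22.7) and Col3a1 (0.49 to 132) were low, so the sum cannot be read as an amount of stroma.

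Heat shock genes, which cell stress and tissue handling can induce, differed in 6 of the 11 tested (54.5% called, beside 36.1% of all genes). These 6 rose (16.8% of all genes were called higher) and the other 5 did not pass, with a median log2 difference of 0.30. Hspa1b, an inducible HSP70 gene, rose from 533 ± 176 to 1209 ± 321 normalized counts (log2 difference 1.21, limma adjusted p = 0.00299); its near-identical copy Hspa1a can share its reads, so the split between them is uncertain. Hsph1, a co-chaperone of HSP70, rose by 0.91 on the log2 scale, the mitochondrial chaperonin gene Hspe1 by 0.73 and Hsp90aa1 by 0.61. These 4 genes were named by a rule that required no overlap between the groups. In this list the groups did not overlap for 6 of the 11 genes tested, beside 24.0% of all genes tested. The part of handling in either set of genes was not tested.

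Other immediate early genes were called at a share below that of all genes tested. Of the 30 tested, 7 fell, 2 rose and 21 did not pass (9 of 30 called, beside 36.1% of all genes), with a median log2 difference of 0.00. Egr3, the closest relative of Egr2 in T cells, fell from 694 ± 86.6 to 339 ± 70.3 normalized counts (log2 difference -1.05, limma adjusted p = 4.77e-04). Nr4a1, an orphan nuclear receptor gene and a reporter of T-cell receptor signal strength, fell from 2559.9 ± 331 to 1574 ± 140.1 (log2 difference -0.70, limma adjusted p = 3.87e-04). Rhob, an early response GTPase gene, fell from 708 ± 87.4 to 264 ± 77.0 (log2 difference -1.46, limma adjusted p = 3.16e-04). Zfp36l2, which encodes an RNA-binding protein that destabilises mRNAs, fell from 15506 ± 4686 to 9072 ± 1793 (log2 difference -0.75, limma adjusted p = 0.00626). The 2 that rose were Klf4 (1.08) and Gadd45b (0.64), named after their values were seen. Egr3, Nr4a1, Rhob and Zfp36l2 were named by a rule that required no overlap between the groups. In this list the groups did not overlap for 6 of the 30 genes tested, beside 24.0% of all genes tested. Egr1, Egr2 and Egr3 were therefore all lower, while the related gene Egr4 had a low count (8.70 ± 2.72 against 12.7 ± 5.76) and a log2 difference of -0.43 (limma adjusted p = 0.375).

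Partners of the AP-1 subunits were called at a share near that of all genes tested (41.7% beside 36.1%). Of the 12 tested, 3 rose, 2 fell and 7 did not pass, with a median log2 difference of 0.07. Maf, a large MAF factor gene, rose from 140.4 ± 24.3 to 312 ± 32.8 normalized counts (log2 difference 1.16, limma adjusted p = 2.80e-04). Batf3 (0.81), a BATF family gene, also rose, and Jdp2 (-0.38), a repressor of AP-1 sites, fell; both overlapped between the groups and were named after their values were seen. Atf2, a JUN partner and JNK substrate, fell by 0.36 on the log2 scale, from 2541 ± 164 to 1981 ± 161 (limma adjusted p = 0.00192). Atf3, a stress-induced partner, had a log2 difference of 0.13 (limma adjusted p = 0.868).

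Genes upstream of the early response were also called at shares near the 36.1% of all genes tested, of which 19.4% were called lower. Of the 12 MAP kinase and MAP kinase kinase genes, 5 fell (41.7%) and 7 did not pass, with a median log2 difference of -0.19. Mapk8, which encodes JNK1, fell by 0.40 on the log2 scale and its activating kinase gene Map2k7 by 0.29, although Jun rose in the same libraries. Mapk14, which encodes p38 alpha, fell by 0.23 on the log2 scale, and Map2k3, which activates p38, by 0.26 with overlapping groups. Of the 9 genes for factors at early gene promoters, 3 fell (33.3%) and 6 did not pass, with a median log2 difference of -0.17. Creb1, whose protein binds the CRE, fell from 6265 ± 505 to 4668 ± 570 (log2 difference -0.43, limma adjusted p = 0.00250), and Mrtfb, a coactivator of serum response factor, fell by 0.55 on the log2 scale. Elk3 (-0.29), a partner of serum response factor, fell with overlapping groups, and Srf had a log2 difference of -0.09 (limma adjusted p = 0.179).

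Genes that restrain the pathway held the largest share of calls among the 6 pathway lists, below the shares of the neutrophil and macrophage marker lists. Of 17 tested, 10 fell, 2 rose and 5 did not pass (70.6% called, beside 36.1% of all genes), with a median log2 difference of -0.31. Dusp4, a nuclear MAP kinase phosphatase gene, fell from 321 ± 52.7 to 159 ± 57.9 (log2 difference -1.06, limma adjusted p = 0.00275). Dusp2, another nuclear phosphatase gene, fell by 0.52 on the log2 scale (limma adjusted p = 0.0101), whereas Dusp1 did not pass the test. Nab2, which encodes a corepressor of EGR proteins and is itself an EGR target, fell from 3737 ± 159 to 2832 ± 29.98 (log2 difference -0.40, limma adjusted p = 1.52e-04). Spred2, an inhibitor of the RAS to ERK route, fell by 0.42 on the log2 scale. The 2 that rose were Dusp7 (0.36) and Fbxw7 (0.27), the latter a ubiquitin ligase gene whose protein marks JUN for degradation. Other ubiquitin ligase genes of this list fell: Itch (-0.19, limma adjusted p = 0.00699) and, with overlapping groups, Cop1 (-0.31, limma adjusted p = 0.00866). Dusp7, Fbxw7, Itch and Cop1 were named after their values were seen.

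**Figure D4:**
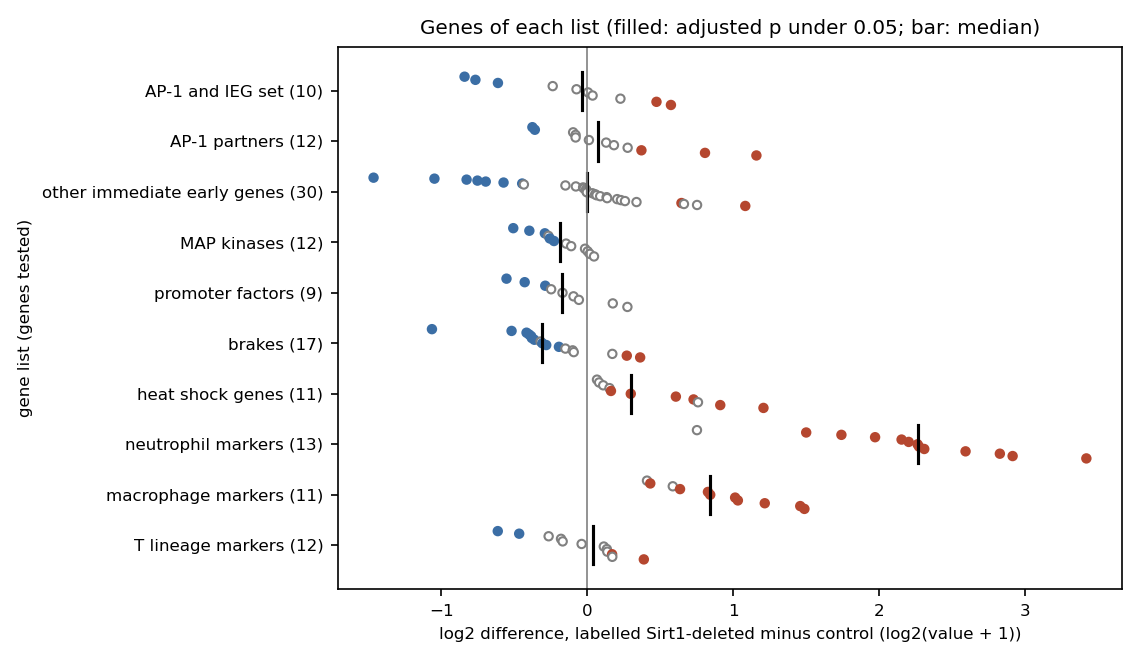
Log2 difference (horizontal axis, labelled Sirt1-deleted minus control) of every tested gene in the immediate early set, 6 related lists and 3 marker lists; filled points had an adjusted p under 0.05 and the bar is the list's median. Immediate early genes lie on both sides of 0, the genes of the brakes list mostly below it (median -0.31), and heat shock (0.30) and neutrophil (2.26) genes above it.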

How the data were processed

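The table the authors deposited is named as DESeq-normalized counts per gene; as deposited, these are a signal scaled by the authors between libraries, and they were not treated as raw counts. The submitters' processing notes name kallisto 0.44.0, DESeq and build mm10; the annotation and gene filter are not given in the sources used here. Low values were not whole multiples of 1 read for enough genes to recover reads, so no count model was run. Libraries were strand-specific, per the labels' protocols. The table had 0 columns outside the 10 samples, and no 2 columns were identical.

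For the 15276 genes with a mean of at least 10, log2(value + 1) was fitted with limma 3.58.1 in R 4.3.3 (group as the only term, intensity trend), with Benjamini-Hochberg adjustment over all genes at 0.05; the script was tested on simulated data. Exon lengths and overlaps came from GENCODE M21 (matched by symbol), promoters from RefSeq. The genes and lists were chosen with earlier results of these data known. Named genes are the 10 genes, up to 4 genes per pathway list with the largest change among those with an adjusted p under 0.05 and no overlap, the 3 most abundant genes of marker lists where a value is given, and the genes most like Fos and Jun; further names were added after values were seen, and some genes of these lists are not reported here. The fit was repeated with other pseudocounts (0.1, 5), filters (mean of 1, of 50, none), scalings (upper quartile, quantile, own TMM code), without the trend, with weighted samples, by exact rank sums, at 0.01, and without each library.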

Additional observations from a re-analysis of the deposited data

Results flagged for a closer look

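For the 10 genes in each group of 5 libraries (20 sets), the distance from the most extreme library to the next was taken as a share of the whole range. This ratio was above the critical value of 0.71 in 2 sets, where chance at 1 in 20 gives 1. Control library 4 was the highest control for Jund, with 1787 normalized counts where the other controls had 1531 to 1602 (ratio 0.722). Without it the log2 difference of Jund was 0.27 (limma adjusted p = 0.0645), against 0.23 with all libraries. Control library 2 was the lowest control for Egr1, with 3759 normalized counts where the other controls had 4343 to 4546 (ratio 0.742). Without it the log2 difference of Egr1 was -0.66 (limma adjusted p = 0.00128), against -0.61 with all libraries, so the fall of Egr1 was no smaller without that library.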

How the results depend on the processing

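No paired analysis was possible because no replicate number occurs in both groups. Fosb, Egr1 and Jun kept their direction and call in each of the 12 alternatives with all libraries and the 10 without 1 library. Egr2 lost its call only at an adjusted p under 0.01 and was not tested at a minimum mean of 50. edgeR and DESeq2 were not run, since whole reads were not recovered. The number of the 10 genes called was 3 at an adjusted p under 0.01, of which 1 was higher, and 1 was called higher with the exact rank-sum test and with limma without trend. Leaving out 1 library gave 1 to 3 genes called higher, and 3 called lower each time. Of the 91 tested genes in the 6 pathway lists, 40 were called (13 higher), and at an adjusted p under 0.01 this was 24 (5 higher). Over all genes, 5518 were called; the rank-sum test gave 3659 (1691 higher, 1968 lower) and an adjusted p under 0.01 gave 2850 (1328 higher, 1522 lower). The sign of the Dusp1 difference turned with quantile normalization (-0.033) and sample weights (-0.14), and ranged from -0.18 to 0.14 without 1 library. That of Ier2 ranged from -0.016 (without labelled Sirt1-deleted library 12) to 0.10 without 1 library. The cause was not tested. Precision is limited by 5 libraries per group, and Fosb, Egr2 and Dusp1 had the widest intervals of the 10 genes.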

Other observations

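The genes whose deviations from the group means most resembled those of Fos and of Jun were sought over the 10 libraries. The search covered genes with a mean of at least 100 and left out the 10 immediate early genes described here. They were picked as the highest of all such genes, so no test is given. For Fos these were Prpf40b (Pearson r = 0.95, Spearman rho = 0.83), Ncoa6 (r = 0.91, rho = 0.85), Gfi1 (r = 0.89, rho = 0.79), Maged1 (r = 0.88, rho = 0.77) and Gm38431 (r = 0.88, rho = 0.99). Without the 2 libraries farthest from the median of Fos, r was between 0.61 (Gfi1) and 0.84 (Prpf40b). For Jun these were Ccdc141 (r = 0.95, rho = 0.93), Pml (r = 0.90, rho = 0.76), Triap1 (r = 0.88, rho = 0.84), Zeb2 (r = 0.87, rho = 0.77) and Enc1 (r = 0.87, rho = 0.85). Without the 2 libraries farthest from the median of Jun, r was between 0.70 (Zeb2) and 0.89 (Ccdc141). All values of a library share its depth and scaling. The immediate early genes described here could not appear, because they were left out. Among them, the highest Pearson r was 0.76 with Fos (Egr2) and 0.74 with Jun (Dusp1).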
